A study of Mus musculus with 6 samples.

Results

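The proteasome genes of splenic B cells were followed across the loss of Crebbp, the gene of the histone acetyltransferase CBP. Genes were taken as members if their symbol on the array began with Psma, Psmb, Psmc, Psmd, Psme, Psmf or Psmg followed by a digit, which gave 49 of the 18193 genes measured. Of these 47 encode parts, activators, assembly factors or inhibitors of the proteasome. The other 2, Psmc3ip and Psme3ip1, encode proteins named after a binding partner. They form a class of their own but are counted among the 49 members. Psme2 and its copy Psme2b share 1 probe set that names both genes, so neither is given here.

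The study compared B cells of 3 Crebbp-floxed mice, labelled CBPF/F x EµBcl2, with B cells of 3 Crebbp-deleted mice, labelled CBPΔ/Δ x EµBcl2. All 6 mice carried the Bcl2 transgene under the Eµ enhancer of the immunoglobulin heavy chain locus, so the controls over-express an anti-apoptotic protein too. The Cre driver, the age and the strain background of the mice are not given in the sources used here. The spleen cells came from frozen viable stocks, and after thawing the B cells were left untouched while beads took out cells with CD43, which plasma cells and many myeloid and T cells carry. RNA of each mouse was hybridised to 1 Affymetrix array, with 3 mice per group. Levels are log2 intensities, differences are Crebbp-deleted minus Crebbp-floxed, and p-values come from limma with Benjamini-Hochberg adjustment over all genes at a threshold of 0.05.

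The proteasome is the protease that degrades proteins tagged with ubiquitin. Its barrel-shaped core is built of outer rings of alpha subunits, which gate the entry, and inner rings of beta subunits, of which Psmb5, Psmb6 and Psmb7 encode the standard proteolytic sites. A cap of ATPases and non-ATPase subunits recognises, unfolds and feeds in the substrate. Lymphocytes and cells exposed to interferon gamma replace the standard catalytic subunits by those of the immunoproteasome, whose cleavage products suit presentation on MHC class I. Plasma cells, which make large amounts of antibody, are known for their sensitivity to proteasome inhibitors.

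No member of the proteasome list passed the test. Limma called 0 of the 49 members at an adjusted p under 0.05, against 0.781% of all genes, and 1 member, the alpha subunit gene Psma5, had an unadjusted p under 0.05, against 14.8% of all genes in either direction and 6.84% lower, as Psma5 was. The 49 differences ran from −0.22 in Psma5 to 0.20 in the assembly chaperone gene Psmd5, with 30 above 0, 19 below 0 and a median of 0.015. The median over all genes was 0.013. Without Psmc3ip and Psme3ip1 the other 47 members had 30 differences above 0, 17 below 0 and a median of 0.017. In size all 49 differences were under 0.25 log2 units, a 1.19-fold change, and so were 78.3% of all genes. The 95% confidence interval of the difference lay within 0.5 log2 units on either side of 0, a 1.41-fold change, for 48 of the 49 members and for 68.2% of all genes.

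**Figure D1:**
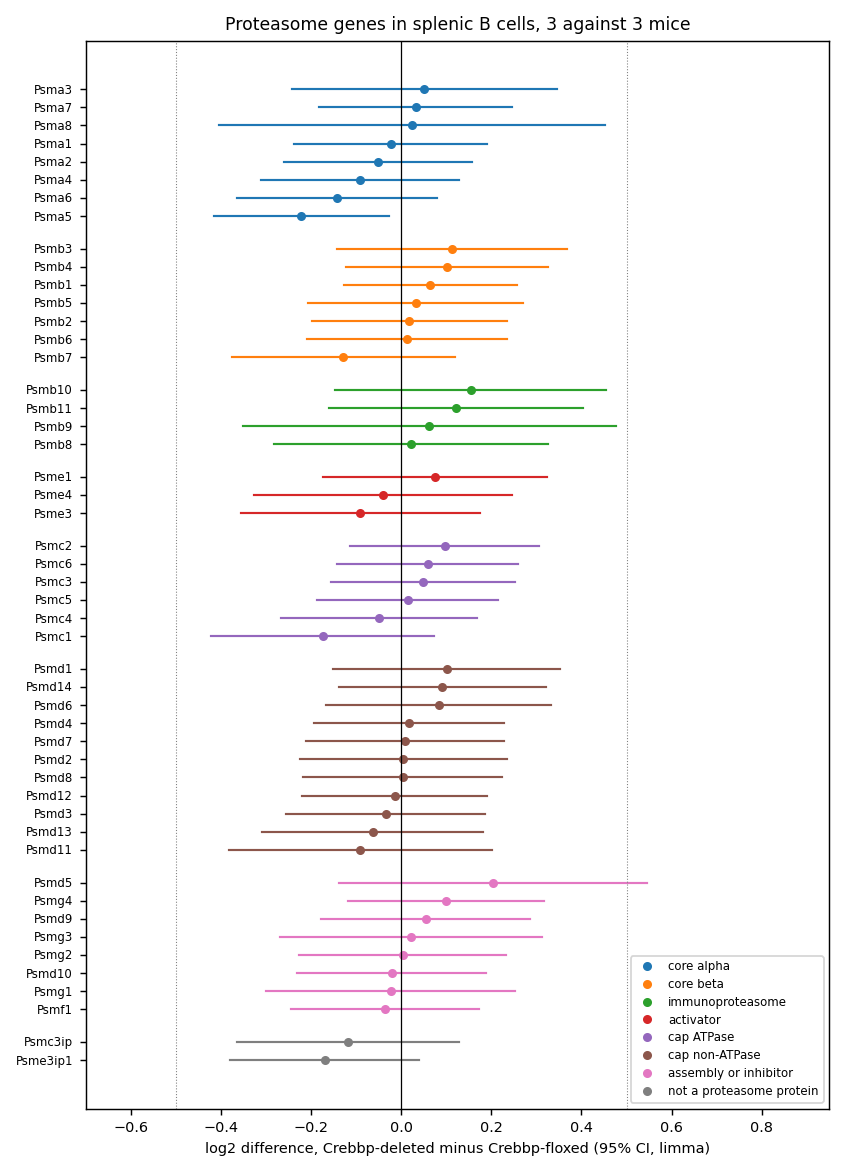
Log2 difference between Crebbp-deleted and Crebbp-floxed B cells for each of the 49 genes, grouped and coloured by role. Points are differences of the means of 3 mice each, bars are limma's 95% confidence intervals, and dotted lines mark 0.5 log2 units. The intervals of all genes but Psma5 cross 0, and that of Psmd5 alone extends past a dotted line, to 0.55.

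The mice differed little from each other at these genes. The median standard deviation within groups was 0.097 log2 units over the members and 0.145 over all genes. In 3 members all deleted samples lay on one side of all floxed samples, against 21.2% of all genes. They were Psma5, the cap ATPase gene Psmc1 and Psme3ip1, and in each the deleted samples were the lower ones, against 10.0% of all genes. Of the 49 members 47 had a chosen probe set with a mean above 4.29, the median of all probe sets. The other 2 were Psma8, the alpha subunit of the testis, and Psmb11, the catalytic subunit of thymic epithelium, and at such dim probe sets a difference is hard to measure. In tissue RNA fewer cells of a type and less RNA per cell cannot be told apart, and a purified population that holds a small share of other cells has the same limit.

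**Figure D2:**
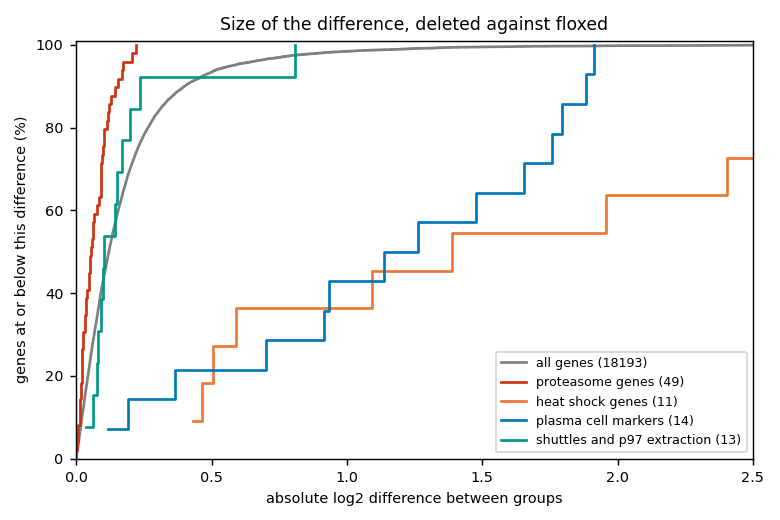
Cumulative share of genes, in percent, by the size of their log2 difference between groups, for all 18193 genes, the 49 proteasome genes, the 13 measured shuttle and p97 genes, 11 heat shock genes and 14 plasma cell markers. The horizontal axis ends at 2.5, and some heat shock genes and a few of all genes lie beyond it. The proteasome curve ends at 0.22, while the heat shock curve begins at 0.43.

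The alpha subunits form the outer rings of the core and hold its gate. Their 8 genes had a median difference of −0.037, with 3 above and 5 below 0. Psma5 measured 9.31, 9.42 and 9.39 in floxed samples 1, 2 and 3 and 9.17, 9.14 and 9.14 in the deleted ones. All 3 deleted samples were below all 3 floxed samples, and the group stood at 85.8% of the floxed level. The difference of −0.22 ± 0.083 (SE, 95% interval −0.42 to −0.027) had an unadjusted p of 0.030 in limma and an adjusted p of 0.272. A second bright probe set, 1424681_a_at, was also lower without overlap but by only −0.059 (limma adjusted p over all probe sets = 0.814). The third, 1454940_at, read 2.83 to 3.63, below the median probe set.

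Psma6, also of the alpha ring, measured 10.01, 9.88 and 9.91 in floxed samples and 9.69, 9.79 and 9.90 in deleted samples. The groups overlapped in deleted sample 3, and the difference was −0.14 (limma adjusted p = 0.547). Each of its 4 probe sets had a difference below 0, down to −0.63 at the dim 1435316_at. Psma4 measured 9.45, 9.34 and 9.53 in floxed samples and 9.35, 9.42 and 9.28 in deleted samples, a difference of −0.091 with overlapping groups (limma adjusted p = 0.710). The other 5 alpha genes, Psma1, Psma2, Psma3, Psma7 and Psma8, had differences from −0.052 to 0.051.

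Among the beta subunits the standard catalytic genes overlapped between the groups. Psmb5, which encodes the chymotrypsin-like site and the main target of proteasome inhibitors, measured 9.04, 8.81 and 9.06 in floxed samples and 8.96, 8.98 and 9.07 in deleted samples. Floxed sample 2 was the lowest of the 6, and the difference was 0.033, with a 95% interval from −0.21 to 0.27 (limma adjusted p = 0.921). Psmb6, the caspase-like site, measured 9.44, 9.23 and 9.32 in floxed samples and 9.28, 9.40 and 9.35 in deleted samples. Its deleted samples lay inside the floxed range, with a difference of 0.013 and an interval from −0.21 to 0.24 (limma adjusted p = 0.969).

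Psmb7, the trypsin-like site, measured 9.77, 9.59 and 9.84 in floxed samples and 9.55, 9.54 and 9.72 in deleted samples. Deleted samples 1 and 2 were below all floxed samples and deleted sample 3 was not, and the difference was −0.13 with an interval from −0.38 to 0.12 (limma adjusted p = 0.632). The non-catalytic beta subunit gene Psmb3 measured 9.80, 9.63 and 9.82 in floxed samples and 9.77, 9.79 and 10.03 in deleted samples (difference 0.11, limma adjusted p = 0.691). Deleted sample 3 was the highest there. Psmb4 measured 10.20, 10.33 and 10.45 in floxed samples and 10.41, 10.46 and 10.42 in deleted samples (difference 0.10, limma adjusted p = 0.682), and its other probe set went the opposite way. Psmb1 and Psmb2 had differences of 0.065 and 0.018, so 6 of the 7 standard beta genes stood above 0, with a median of 0.033.

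The 4 genes classed with the immunoproteasome, among them the dim Psmb11, had a median SD within groups of 0.171. The 15 genes classed with the standard core, among them the dim Psma8, had one of 0.088. Psmb9, which replaces Psmb6, measured 9.76, 9.92 and 10.29 in floxed samples and 10.03, 10.32 and 9.81 in deleted samples. Floxed sample 3 and deleted sample 2 were high, floxed sample 1 and deleted sample 3 were low, and the groups overlapped over most of their range. The difference was 0.062 ± 0.177 (SE, interval −0.35 to 0.48, limma adjusted p = 0.913). Psmb8, which replaces Psmb5, measured 10.62, 10.82 and 11.02 in floxed samples and 10.89, 10.95 and 10.69 in deleted samples. The same mice were at its ends, except that floxed sample 3 stood above deleted sample 2, and the difference was 0.021 (interval −0.28 to 0.32, limma adjusted p = 0.964).

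Psmb10, which replaces Psmb7, measured 9.31, 9.65 and 9.46 in floxed samples and 9.60, 9.81 and 9.48 in deleted samples. Its difference of 0.15 had an interval from −0.15 to 0.46 (limma adjusted p = 0.639). Psmb11 was at 2.95, 2.57 and 2.70 in floxed samples and 2.87, 2.95 and 2.76 in deleted samples, below the median probe set in every mouse (difference 0.12, limma adjusted p = 0.702). The SD within groups was 0.27 and 0.26 for Psmb9 in floxed and deleted mice, against 0.11 and 0.063 for Psmb6. That the spread differs between these genes was not tested.

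**Figure D3:**
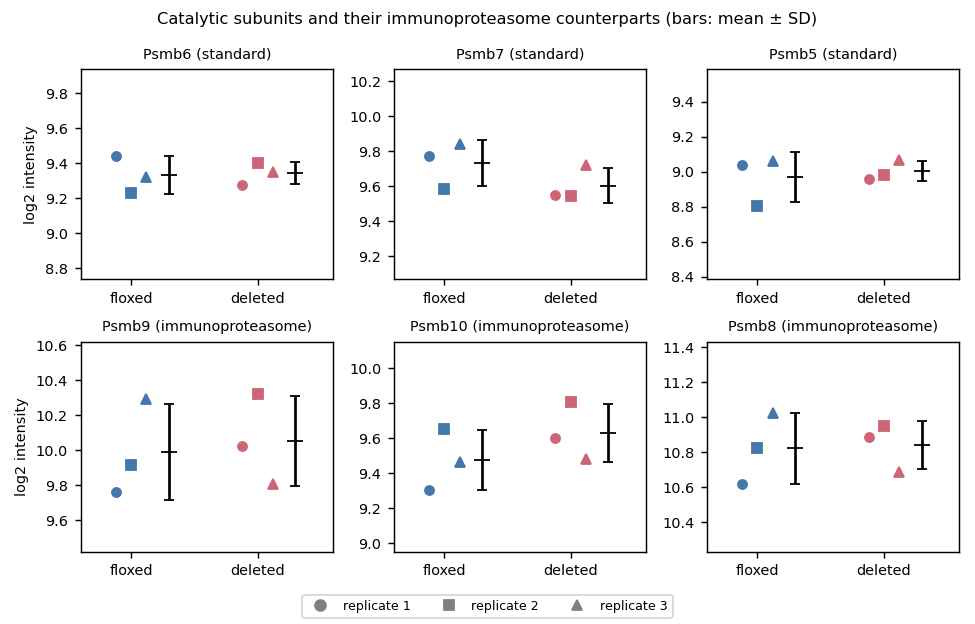
Log2 intensity of the standard catalytic subunit genes in the upper row and of the immunoproteasome gene that replaces each in the lower row, by group, with replicates 1, 2 and 3 as circles, squares and triangles. Black bars are the mean ± SD of 3 mice, and each panel spans 1.2 log2 units around the middle of both groups. In each panel the groups overlap or, for Psmb7, are joined by deleted sample 3.

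The balance between the proteasome types was read on each array as the log2 ratio of the immunoproteasome gene to the standard gene it replaces. Such a ratio of probe sets is not a ratio of molecules, and only its change between mice is of use. Psmb10 over Psmb7 was −0.47, 0.067 and −0.38 in floxed samples and 0.046, 0.26 and −0.24 in deleted samples. Floxed sample 2 stood within the deleted range while the other floxed samples were below it, and the ratio changed by 0.28, a factor of 1.22 (two-sided exact permutation test, p = 0.3, adjusted p = 0.9 over the 3 pairs). Psmb9 over Psmb6 was 0.32, 0.69 and 0.97 in floxed and 0.75, 0.92 and 0.46 in deleted samples, a change of 0.049 (exact p = 0.8, adjusted p = 0.9). Psmb8 over Psmb5 was 1.58, 2.02 and 1.96 in floxed and 1.93, 1.97 and 1.62 in deleted samples, a change of −0.012 (exact p = 0.9, adjusted p = 0.9). With 3 samples against 3 the smallest p the exact test can give is 0.1. Floxed sample 1 had the lowest of the 6 ratios in all 3 pairs.

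The activators open the gate of the core from its ends. Psme1, a subunit of the interferon-inducible activator, measured 10.77, 10.91 and 10.94 in floxed samples and 10.98, 11.07 and 10.79 in deleted samples, with a difference of 0.075 (interval −0.17 to 0.32, limma adjusted p = 0.800). Its low samples were floxed 1 and deleted 3, which were also low in Psmb8 and Psmb9. Psme3, the nuclear activator, measured 7.79, 7.47 and 7.79 in floxed and 7.59, 7.53 and 7.65 in deleted samples (difference −0.091, limma adjusted p = 0.769). Psme4, a large activator of a single chain known to bind acetylated histones, measured 8.13, 8.52 and 8.25 in floxed and 8.28, 8.34 and 8.16 in deleted samples. Its difference was −0.040 with the deleted samples inside the floxed range (limma adjusted p = 0.919), and all 6 of its probe sets were below 0, the lowest at −0.34 without passing (adjusted p over all probe sets = 0.436).

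The cap ATPases form the ring that unfolds substrates. Their 6 genes had a median difference of 0.032. Psmc1 measured 7.87, 7.77 and 7.89 in floxed samples and 7.49, 7.76 and 7.74 in deleted samples. The groups did not overlap, but deleted sample 2 lay just under floxed sample 2, and the difference was −0.17 ± 0.106 (SE, interval −0.42 to 0.073, limma adjusted p = 0.5002). Its second probe set, 1439392_x_at, read 1.95 to 2.35 in all samples, too dim to set against the first. Psmc2 measured 9.68, 9.74 and 9.74 in floxed and 9.72, 9.83 and 9.90 in deleted samples (difference 0.096, limma adjusted p = 0.677).

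Psmc6 depended on the probe set read. The chosen one, with the highest mean, measured 9.09, 9.02 and 8.996 in floxed and 9.10, 9.15 and 9.03 in deleted samples, a difference of 0.059 (limma adjusted p = 0.808). At 1417770_s_at the floxed samples measured 8.15, 7.97 and 8.12 and the deleted ones 7.60, 7.77 and 7.499. That difference was −0.46, and 1417769_at gave −0.48, with the groups separate at both and adjusted p-values over all probe sets of 0.137 and 0.121. Where these probe sets lie in the transcript was not analysed here, so they cannot be assigned to an isoform. Psmc3, Psmc4 and Psmc5 had differences of 0.049, −0.049 and 0.015.

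The non-ATPase subunits of the cap include the ubiquitin receptors and the deubiquitinase Psmd14, which removes the ubiquitin chain as the substrate enters. The 11 genes had a median difference of 0.0050, with 7 above and 4 below 0. Psmd14 measured 9.66, 9.78 and 9.92 in floxed and 9.87, 9.94 and 9.83 in deleted samples (difference 0.091, interval −0.14 to 0.32, limma adjusted p = 0.725). Psmd1, a scaffold of the base of the cap, measured 8.55, 8.50 and 8.79 in floxed and 8.65, 8.68 and 8.81 in deleted samples (difference 0.10, limma adjusted p = 0.724).

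Psmd11, a lid subunit, measured 9.18, 9.001 and 9.10 in floxed and 9.11, 9.15 and 8.77 in deleted samples. Deleted sample 3 was low and the other samples were alike, with a difference of −0.091 (limma adjusted p = 0.795), and its 8 probe sets were divided, 4 higher and 4 lower. The ubiquitin receptor gene Psmd4 had a difference of 0.017 and the scaffold gene Psmd2 one of 0.0050. These and Psmd3, Psmd6, Psmd7, Psmd8, Psmd12 and Psmd13 ran from −0.064 to 0.083, with limma adjusted p-values from 0.775 to 0.993.

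The assembly chaperones and the inhibitor had a median difference of 0.012 over 8 genes. Psmd5, which holds ATPases during the assembly of the cap, had the largest positive difference of all members. It measured 7.11, 7.60 and 7.10 in floxed samples and 7.49, 7.48 and 7.45 in deleted samples. Floxed sample 2 was the highest of the 6 and the other floxed samples were the lowest, and the difference was 0.20 ± 0.146 (SE, interval −0.14 to 0.55, limma adjusted p = 0.571). Without floxed sample 2 it was 0.37 (limma adjusted p = 0.136), the largest difference of any member when a sample was left out.

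Psmd9, another chaperone of cap assembly, measured 6.45, 6.45 and 6.58 in floxed and 6.499, 6.46 and 6.69 in deleted samples (difference 0.054, limma adjusted p = 0.853). Psmg4, a chaperone of the alpha ring, measured 7.998, 7.81 and 7.87 in floxed and 8.03, 8.03 and 7.92 in deleted samples (difference 0.10, limma adjusted p = 0.679). Its fellow chaperone genes Psmg1, Psmg2 and Psmg3 had differences of −0.023, 0.0034 and 0.021. Psmd10, also of cap assembly, stood at −0.021 and Psmf1, an inhibitor of the core in the test tube, at −0.036.

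Of the genes outside the complex that the symbol rule took in, Psme3ip1, whose product binds the nuclear activator, measured 8.31, 8.13 and 8.20 in floxed and 8.01, 8.04 and 8.09 in deleted samples. The deleted samples were the lower ones without overlap, with a difference of −0.17 (limma adjusted p = 0.432). Psmc3ip, a factor of meiotic recombination, measured 5.64, 5.59 and 5.84 in floxed and 5.50, 5.53 and 5.69 in deleted samples (difference −0.12, limma adjusted p = 0.661).

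Over all 103 single-symbol probe sets of the members, limma called 0 in a fit on all probe sets. An unadjusted p under 0.05 was found for 5.83% of them and for 13.6% of all probe sets. These 6 probe sets were all lower in the deleted samples, and 5 of them were not the probe set chosen for their gene. They belong to Psma5, Psma6, Psmc6 with 2, Psmd7 and Psmd13, the last with the lowest difference of all, −0.66 at 1445729_at, a dim probe set at 3.17 to 4.36. The highest difference of the 103 was 0.26 at 1423696_a_at of Psmd6, a bright probe set at 8.83 to 9.50. Its groups overlapped (limma adjusted p over all probe sets = 0.528). Of the 27 members with more than 1 probe set, 16 had probe sets in both directions.

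Other genes around the proteasome were taken from lists chosen by role. Limma called 0 of 10 measured partner genes that lack a Psm symbol. An unadjusted p under 0.05 was reached by 2 of the 10, each higher in the deleted samples. Of all 18193 genes 14.8% reached it in either direction, and 1448 were higher. At the chosen probe sets all 10 differences were above 0, with a median of 0.11, and so were 9707 of all 18193 genes. Other probe sets divided: 3 of 4 were lower in Usp14, 5 of 7 in Zfand5, 1 of 2 in Uchl5 and 1 of 6 in Txnl1. In Zfand2a, Ecpas and Sem1 all probe sets were higher. In 4 of the 10 the deleted samples were higher without overlap, or 40.0%. The same held for 2039 of all 18193 genes, and 21.2% of all genes did not overlap in either direction. Zfand2a, a heat- and arsenite-inducible protein that binds the cap, measured 7.40, 7.48 and 7.49 in floxed and 8.06, 7.63 and 7.99 in deleted samples. The deleted samples were higher without overlap, by 0.44 (limma adjusted p = 0.175). Akirin2, which carries proteasomes into the nucleus, had a difference of 0.32 without overlap (limma adjusted p = 0.240). Its second probe set was lower in the deleted samples. The proteasome-bound thioredoxin gene Txnl1 and the proteasome adaptor gene Ecpas had differences of 0.17 and 0.19, also without overlap, and limma adjusted p-values of 0.391 and 0.436. The core assembly gene Pomp and the small lid subunit gene Sem1 stood at 0.032 and 0.0087.

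In the list of regulators of proteasome genes 0 of 7 measured genes passed. Ddi2 and Hsf1 of this list were not measured here, and the mean of Hsf2 was below the median probe set. Nfe2l2, the transcription factor of the oxidative stress response, measured 9.60, 8.71 and 9.40 in floxed and 8.62, 8.41 and 8.45 in deleted samples. The groups did not overlap, and the difference was −0.74 (limma adjusted p = 0.177). Its relative Nfe2l1, which raises proteasome genes when the proteasome is inhibited, measured 7.40, 7.67 and 7.48 in floxed and 7.57, 7.60 and 7.76 in deleted samples (difference 0.13, limma adjusted p = 0.630). Foxo4, a forkhead factor, and Nfyb, a subunit of the CCAAT-binding factor, had differences of 0.19 and −0.15 (limma adjusted p = 0.364 and 0.582). The ubiquitin list had 1 of 6 genes measured here, the activating enzyme gene Uba6, with a difference of −0.11 (limma adjusted p = 0.783).

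The shuttles bring ubiquitinated proteins to the proteasome, and the p97 ATPase pulls them out of complexes. Of the 13 measured genes 0 passed, and the median was 0.061. Ubxn7, a p97 adaptor, measured 6.60, 7.08 and 6.51 in floxed and 7.58, 7.503 and 7.53 in deleted samples. The deleted samples were higher without overlap, by 0.81 (limma adjusted p = 0.068), but its second probe set was lower. The adaptor genes Ubxn1 and Nsfl1c stood 0.20 and 0.17 higher and the shuttle gene Ubqln1 0.24 higher (limma adjusted p = 0.399, 0.413 and 0.424). Vcp, which encodes p97 itself, measured 10.11, 9.88 and 10.17 in floxed and 10.04, 10.17 and 10.40 in deleted samples (difference 0.15, limma adjusted p = 0.645).

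Genes of class I presentation, which uses the peptides of the immunoproteasome, had 0 of 9 members past the test and a median of 0.0064. Tapbpl, a peptide editor, was 0.35 higher without overlap (limma adjusted p = 0.188), and Pdia3, Tap2 and Erap1 had differences of 0.18, 0.10 and 0.14 (limma adjusted p = 0.562, 0.665 and 0.674). Tap1, a chain of the peptide transporter, lies beside Psmb9 in the genome and measured 9.18, 8.97 and 9.48 in floxed and 9.21, 9.45 and 8.81 in deleted samples. Floxed sample 3 and deleted sample 2 were its highest and deleted sample 3 its lowest. Its difference was −0.052 (limma adjusted p = 0.935).

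Of 8 measured genes of the interferon gamma response 0 passed. The guanylate-binding protein genes Gbp3 and Gbp2 had differences of 0.95 and 1.17 (limma adjusted p = 0.062 and 0.225). Ifi47 and Irf8 had differences of −0.27 and −0.099 (limma adjusted p = 0.649 and 0.755), and the median of the list was −0.0056. Irf1, which induces the immunoproteasome genes, measured 9.32, 9.59 and 10.03 in floxed and 9.95, 9.67 and 9.41 in deleted samples (difference 0.028, limma adjusted p = 0.968). Floxed sample 1 and deleted sample 3 were low here as they were in Psmb8, Psmb9 and Psme1. The median distance from the floxed mean over Psmb8, Psmb9, Psmb10 and Psme1 was −0.18, 0.018 and 0.13 in floxed samples 1, 2 and 3 and 0.084, 0.27 and −0.11 in deleted samples 1, 2 and 3.

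**Figure D4:**
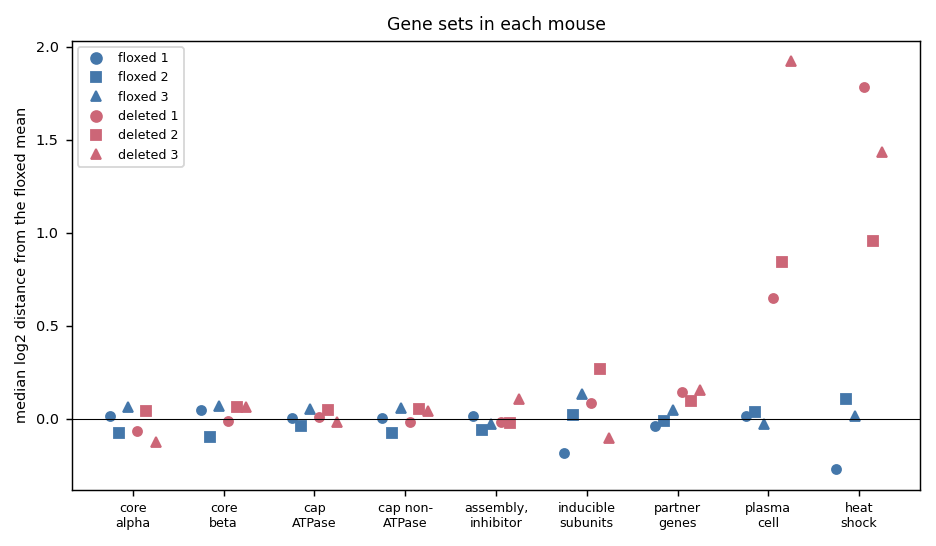
Median log2 distance of each gene set from the mean of the floxed mice, for each of the 6 mice, with floxed mice in blue, deleted mice in red and the replicate number as the symbol. The inducible subunits are Psmb8, Psmb9, Psmb10 and Psme1. The core, cap and assembly sets stay between −0.13 and 0.11 and mix the groups, whereas the heat shock set lies from −0.27 to 0.11 in floxed and from 0.95 to 1.78 in deleted mice.

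Crebbp was lower without overlap at each of its 4 probe sets, with the chosen one at 70.6% of the floxed level (limma adjusted p = 0.078). The chosen one had the smallest difference of the 4, −0.50. Another bright probe set had a difference of −0.79 and passed (limma adjusted p over all probe sets = 0.033). The remaining ones had differences of −0.53 and −0.97 and did not pass (limma adjusted p over all probe sets = 0.083 and 0.081). Bcl2 stood at 59.8% of the floxed level without overlap (limma adjusted p = 0.055), and the same direction was seen at 4 of the 5 Bcl2 probe sets. Both groups carry a Bcl2 transgene, and whether these probe sets read it or the mouse's own gene was not tested. All 7 measured B cell markers were above the median probe set, but 6 of them were lower in the deleted samples and 1, the receptor chain gene Cd79a, passed the test (difference −1.11, limma adjusted p = 0.0093). Their summed intensity was 21856 to 24934 in floxed and 18135 to 19053 in deleted samples. Across the genome 142 genes passed, 99 higher and 43 lower, a count that dropped to 0 when floxed sample 1 was left out and to 16, 45 and 62 when deleted samples 1, 2 and 3 were, and that reached 226 on leaving out floxed sample 3. Of 14 plasma cell markers 1 passed and 13 were above 0. In limma 11 of them had an unadjusted p under 0.05, all higher, or 78.6%. Of all 18193 genes 1448 were higher at that threshold, and 14.8% reached it in either direction. Their summed intensity was 7300 to 8822 in floxed and 13599 to 22310 in deleted samples. The same sum for 14 macrophage markers was 551 to 1742 and 1607 to 3979, and for 11 heat shock genes, of which 3 passed, 16720 to 26074 and 34054 to 43518. For the 49 members it was 29089 to 31370 in floxed and 29709 to 31353 in deleted samples. The part of these differences in the proteasome values was not tested. By Xist and Y-linked genes the males were floxed 1, deleted 1 and deleted 3, and with sex as a term limma called 0 members, the lowest adjusted p being 0.386 for Psmb10.

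The bases before the start were compared with those of the heat shock genes, whose differences all exceeded those of the proteasome genes, and the sequences show the letters searched for. RefSeq promoters of the build GRCm38.p6 were found for 41 of the 49 members and 9 of the 11 heat shock genes, and the 250 bases before the start were searched on both strands. The pair of inverted units GAANNTTC, to which heat shock factor can bind, was present in 3 of 41 members, or 7.32%. It was present in 7.73% of all 27025 genes with a promoter and in 6 of 9 heat shock genes. The 6 were Dnaja1, Hspa1a, Hspa1b, Hspb1, Hspd1 and Hspe1. Each gene was counted singly, and whether any of these promoters share bases was not analysed. In the lines below each occurrence is in capitals, of which Hspb1 has 2. The windows are those of the members that hold it, Psmb5 at chr14:54618204-54618245, Psmb9 at chr17:34187491-34187550 and Psmf1 at chr2:151741347-151741406, all on the minus strand. For comparison those of Hspb1 at chr5:135887796-135887855 on the plus strand and Hspa1a at chr17:34972227-34972286 on the minus strand are given.
Psmb5: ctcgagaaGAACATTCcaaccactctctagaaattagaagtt
Psmb9: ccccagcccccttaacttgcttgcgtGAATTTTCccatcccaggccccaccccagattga
Psmf1: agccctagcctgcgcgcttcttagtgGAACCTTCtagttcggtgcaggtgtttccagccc
Hspb1: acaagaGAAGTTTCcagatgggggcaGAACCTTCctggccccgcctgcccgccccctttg
Hspa1a: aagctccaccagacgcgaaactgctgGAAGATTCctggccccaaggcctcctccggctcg
The element of Psmf1 has the same letters as 1 of those of Hspb1. The log2 differences of these genes were 0.033 in Psmb5, 0.062 in Psmb9, −0.036 in Psmf1, 3.27 in Hspb1 and 3.39 in Hspa1a. The other orientation, TTCNNGAA, was found in 2 members, Psmd4 and Psme3, with differences of 0.017 and −0.091, and in 8.11% of all genes. An element of 3 alternating units is either pair with a further unit after a gap of the same length. It was found in 0 of 41 members and in 0.514% of all genes. Among the 9 heat shock genes 2 had it, Hspd1 and Hspe1, again counted singly. A match is a description of letters, not of a bound site.

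The core of the antioxidant response element, TGANNNNGC, is the kind of site that the products of Nfe2l1 and Nfe2l2 bind. It was found in 17 of 41 members, or 41.5%, and in 38.7% of all genes. The windows shown are those of Psma6 at chr12:55384026-55384086 on the plus strand, Psmb5 at chr14:54618008-54618068 on the minus strand, Psmb6 at chr11:70525322-70525356 on the plus strand and Psmb9 at chr17:34187356-34187416 on the minus strand. They set an alpha gene and standard catalytic genes beside an immunoproteasome gene, with the element in capitals on either strand.
Psma6: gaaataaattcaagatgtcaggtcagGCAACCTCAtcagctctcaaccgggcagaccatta
Psmb5: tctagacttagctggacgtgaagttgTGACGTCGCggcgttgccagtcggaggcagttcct
Psmb6: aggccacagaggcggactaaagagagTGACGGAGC
Psmb9: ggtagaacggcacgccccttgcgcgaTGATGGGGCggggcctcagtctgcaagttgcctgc
The 17 members with the letters had differences from −0.17 to 0.20 with a median of 0.054, and the 24 members without them had a median of 0.0040. The CCAAT box, bound by the factor to which Nfyb belongs, was found in 16 of 41 members, or 39.0%, and in 37.5% of all genes. The full cAMP response element TGACGTCA, the site of the CREB factors that recruit CBP, was found in 0 of 41 members and in 1.77% of all genes. The gamma-activated site TTCNNNGAA was found in 2 members, Psmb8 and Psmg1, and in 8.13% of all genes.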

How the data were processed

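For each of 6 arrays the authors deposited 1 intensity per probe set, made with RMA per the submitters' processing notes (background correction, quantile equalisation, summary per probe set), with no version given. The values run from 2.96 to 17022, were read as linear intensities and were log2-transformed only. Precision is limited by how few arrays there are. Of 45101 probe sets 34945 had 1 gene symbol and were no control, 932 had several symbols and 9211 had none; 64 are controls. Each of 18193 genes was represented by its single-symbol probe set with the highest mean. The test was limma's moderated comparison (version 3.58.1, R 4.3.3), two-sided, without covariates and with Benjamini-Hochberg adjustment over all genes. A group's samples are separate mice per the design text. Values by sample are given for the catalytic subunits and the 3 members with the largest difference in each class; of other lists up to 4 genes with the smallest p were named, and other genes named there were chosen after their values were seen. The members and lists were chosen with earlier results of these data known, and the 3-unit heat shock elements after the promoters had been searched. On data simulated for this comparison (20 runs over 18193 genes, 200 of them changed) limma recovered 24.3% of genes changed by 0.5 log2 units, 76.3% at 1 and 95.3% at 2, with 4.71% false calls. Sequences are RefSeq's, build GRCm38.p6. Python 3.11.15 with matplotlib 3.10.9 drew the figures.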

Additional observations from a re-analysis of the deposited data

How the results depend on the processing

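Limma called 0 members under the 15 other fits run, which tested all 49 except that the fit on genes above the median probe set tested 47, without Psma8 and Psmb11, and at adjusted p thresholds of 0.1 and 0.01 in the fit as reported; the lowest adjusted p of any member in these fits was 0.095, for Psma5 with log2 of the intensity plus 16. Leaving out 1 mouse at a time, the median difference of the members ran from −0.030 to 0.039. The count over all genes, 142, was 222 with trend and robust fitting, 37 with sex as a term, 449 at a threshold of 0.1 and 17 at 0.01, and ran from 0 to 226 without single mice: 0 without floxed sample 1 (1990 genes at an unadjusted p under 0.05), 226 without floxed sample 3 and 16, 45 and 62 without deleted samples 1, 2 and 3. Deviations of same-numbered mice from their group means correlated at 0.033, 0.10 and 0.0059 over 18193 genes. Those of differently numbered mice correlated at −0.12 to 0.079. With 3 mice per group these values cannot show whether replicate numbers pair the samples. With the replicate block limma called 126 genes and 0 members. By class, the activator median was 0.075 with the dimmest probe set per gene and ran from −0.059 to 0.069 without single mice, and the cap ATPase median was −0.017 with the mean of all probe sets and −0.044 with the dimmest. The change of Psmb8 over Psmb5 was 0.0072 with the mean of all probe sets and 0.026 with the dimmest, and ran from −0.15 to 0.097 without single mice; that of Psmb9 over Psmb6 ran from −0.12 to 0.21. The cause was not tested. The 26 genes given by sample had 389 differences in other fits, of which 15 moved by more than the replicate SD, all under another choice of probe set, 26 changed sign and 0 passed.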
